A study of Mus musculus with 28 samples.

Results

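The growth-cone genes are 10 of the 23995 genes listed in every table. They fall into 3 families: Gap43, Basp1 and Marcks, whose proteins sit on the inner face of the plasma membrane, the stathmins Stmn1, Stmn2, Stmn3 and Stmn4, and the collapsin response mediator proteins (CRMPs) Crmp1, Dpysl2 and Dpysl3. The genes were taken by name and not by a measured value, but with earlier results of these data known. All 10 were present in every library's table. Axon-TRAP, the immunoprecipitation of tagged ribosomes from axons, was carried out on C57BL/6 mice. All of them carried the RiboTag knock-in allele, which Cre converts into an HA-tagged form of the ribosomal protein Rpl22, from a cross of RiboTag mothers with Pax6-alpha-Cre fathers. In Cre-positive animals the Pax6-alpha promoter drives Cre in progenitors of the peripheral retina, so their retinal ganglion cells (RGCs) and other retinal cells hold tagged ribosomes. In the superior colliculus (SC), the midbrain target of RGC axons, tagged ribosomes then lie in the axons. The SC of Cre-negative littermates carries the same allele without Cre, so its precipitate is background, and the retina samples were eyes of Cre-positive animals. Per the methods, several eyes or SCs were pooled for each precipitation, and the age of the adults is not given in the sources used here. The stages were E17.5, when RGC axons elongate, P0.5, when they branch, P7.5, when branches are pruned, and adult. Each of the 12 groups of stage and source had 2 libraries, which gave 24 libraries in FPKM (fragments scaled to transcript length and to a library's mapped total), and 4 further adult libraries of reads, 1 each, came from a ribosome run-off experiment.

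A growth cone is the motile tip of a growing axon, and it advances as actin at its edge and microtubules in its core are built and taken apart. GAP-43, BASP1 (CAP-23) and MARCKS are substrates of protein kinase C that bind calmodulin or acidic lipids and tie the membrane to the actin cortex. Stathmins bind free tubulin and promote the shrinkage of microtubules, and CRMPs bind tubulin dimers, favour microtubule assembly and carry the signal of repellent semaphorins. Gap43 is the classical gene of axon growth and regeneration in the visual system, and its mRNA is among those known to be carried into axons.

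The family members differ in how they reach the membrane, and this can be read in the first 30 codons of their coding sequences. GAP-43 and the neuronal stathmins are held on membranes by palmitate on a pair of cysteines near the start, whereas stathmin 1 has no such pair and is cytosolic. The sequences below are the first 90 coding bases of 1 transcript per gene in the GENCODE annotation of GRCm38 (mm10), read 5′ to 3′ on the gene's own strand, and the capitals mark in-frame cysteine codons.
Gap43: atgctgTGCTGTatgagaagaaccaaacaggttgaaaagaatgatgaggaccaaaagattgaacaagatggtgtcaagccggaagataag
Stmn2: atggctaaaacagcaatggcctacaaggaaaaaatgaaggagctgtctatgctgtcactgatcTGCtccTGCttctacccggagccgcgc
Stmn3: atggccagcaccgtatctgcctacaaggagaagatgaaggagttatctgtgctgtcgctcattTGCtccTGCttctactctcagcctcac
Stmn4: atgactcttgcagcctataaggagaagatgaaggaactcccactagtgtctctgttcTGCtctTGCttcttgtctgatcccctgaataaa
Stmn1: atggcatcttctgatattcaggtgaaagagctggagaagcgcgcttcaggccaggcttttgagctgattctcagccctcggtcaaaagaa
Gap43 has its pair at codons 3 and 4, Stmn2 and Stmn3 at codons 22 and 24, and Stmn4 at codons 20 and 22, while the 30 codons of Stmn1 hold none. Set side by side without gaps, the stretches of Stmn2 and Stmn3 shared 69 of 90 bases (76.7%), and those of Stmn1 and Stmn2 shared 27 (30%). Gap43 (ENSMUSG00000047261) lies on chromosome 16 from 42248442 to 42340651, minus strand, with its first coding base at 42340502. Stmn2 (ENSMUSG00000027500) lies on chromosome 3 from 8509360 to 8561606, plus strand, Stmn3 (ENSMUSG00000027581) on chromosome 2 from 181306459 to 181314500, minus strand, Stmn4 (ENSMUSG00000022044) on chromosome 14 from 66344296 to 66361680, plus strand, and Stmn1 (ENSMUSG00000028832) on chromosome 4 from 134468320 to 134473843, plus strand. Basp1 is on chromosome 15, Marcks on chromosome 10, Crmp1 on chromosome 5 and Dpysl2 on chromosome 14. FPKM is a level per gene, so no isoform or exon of these genes could be told apart.

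The libraries limit what can be said of a low value. The depth is not stated, and an estimate from the spacing of low FPKM values could be had for 21 of the 24 libraries. It ran from 483000 to 13800000 fragments with a median of 7210000, and the 3 shallowest libraries were replicate 1 of E17.5 Cre-negative SC and replicate 1 of both adult SC groups. For Gap43, 3 fragments corresponded to 2.85 and 1.64 FPKM in the adult Cre-positive SC libraries and to 0.331 FPKM in replicate 1 at P0.5. An exact 0 may be a failed estimate, since Gapdh was listed at 0 in both adult Cre-positive SC libraries. Of 8 RGC markers, 5 were at 0 in both of these libraries and 2 reached 1 FPKM. Fewer axons and less mRNA per axon cannot be told apart in such samples. P-values rest on the spread between the 2 pooled libraries of each group. That spread is shared over all groups of a fit and moderated by that of the other genes. The paper calls its Cre-positive and Cre-negative replicates biological, but part of their spread may be technical.

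**Figure D1:**
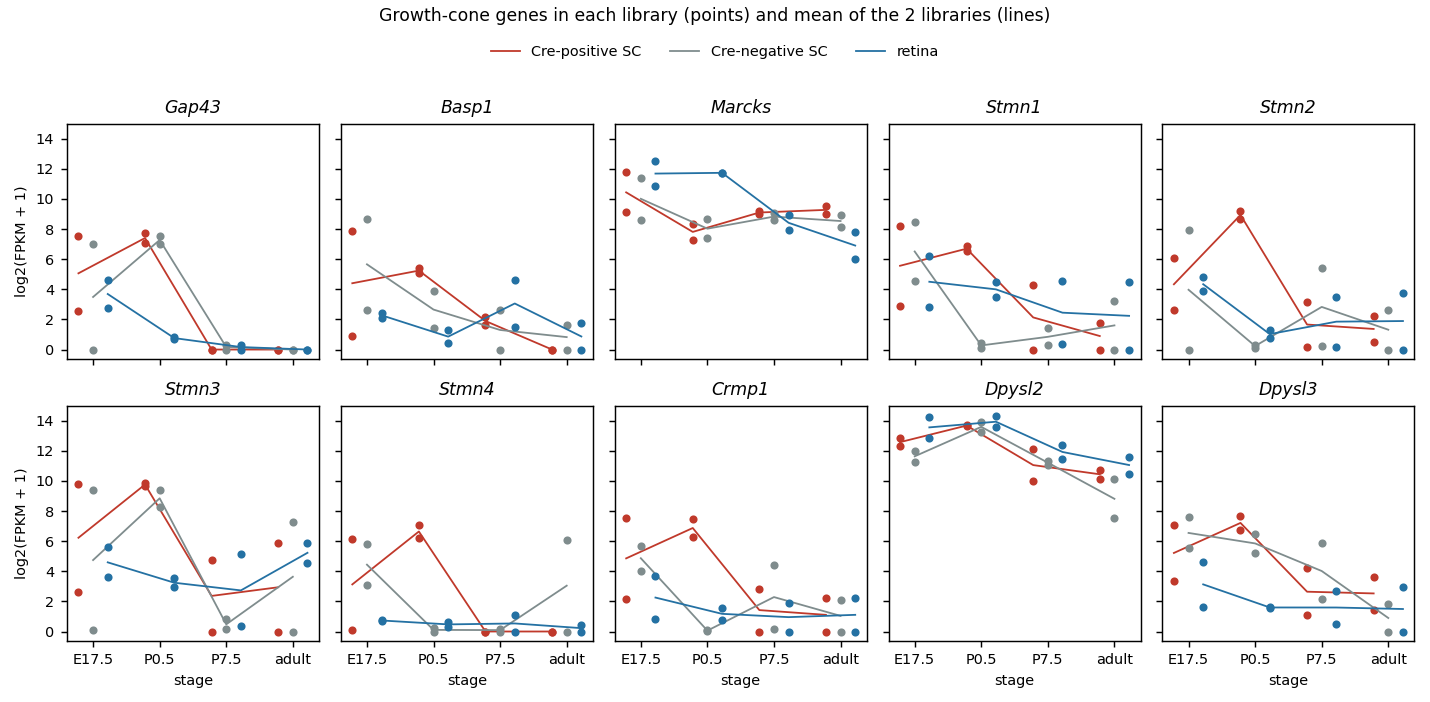
Level of each growth-cone gene, as log2(FPKM + 1), against stage. Each point is 1 library, colours give the source, and lines join the means of the 2 libraries. In Cre-positive SC 9 of the 10 genes lie higher at P0.5 than in both adult libraries, Marcks being the exception, and Dpysl2 is the highest of the 10 in all 8 Cre-positive libraries.

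In Cre-positive SC, 9 of the 10 genes had both P0.5 libraries above both adult libraries, and 5 of them, Gap43, Stmn2, Stmn4, Crmp1 and Dpysl2, passed the test (limma on log2(FPKM + 1), Benjamini-Hochberg adjustment over 5983 genes). None was lower. Many other genes were higher as well: 53.4% of the genes tested had both P0.5 libraries above both adult ones, 31.2% passed the test as higher and 0.919% as lower. The median difference over the 10 genes was 5.78 on the log2 scale and that over all genes 1.45, with 3 of the 10 genes listed at 0 in both adult libraries, so that their differences depend on the pseudocount.

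Gap43 stood at 211 and 135 FPKM in P0.5 Cre-positive SC and was listed at 0 in both adult libraries and in both libraries of P7.5. At P0.5 it ranked 301 and 319 among the 4620 and 4923 genes above 0. Its P0.5 and adult libraries did not overlap (adjusted p = 0.0177, limma). This call rests on the listed adult 0, which another library puts in doubt. The adult Cre-positive SC library without run-off, described below, held 976 reads of Gap43. Scaled to library total and transcript length that was 211, near the P0.5 levels. This scale followed the adult FPKM for Dpysl2 (1810 against 1702 and 1134) but not for Marcks (46.4 against 518 and 739). Whether Gap43 falls from P0.5 to adult is therefore uncertain. At E17.5 its replicates read 186 and 4.98 FPKM, above both adult libraries but 37 times apart.

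Basp1, the second substrate of protein kinase C, gave 33.4 and 40.7 FPKM at P0.5 and was listed at 0 in both adult libraries, and its adjusted p of 0.12 (limma) missed the threshold. At E17.5 it gave 238 and 0.877 FPKM, and at P7.5 3.48 and 2.09 FPKM. In the adult libraries 3 fragments of Basp1 corresponded to 3.65 and 2.10 FPKM. An adult 0 can therefore not be told from the P7.5 level.

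Marcks behaved otherwise. Its levels in Cre-positive SC were 3486 and 551 FPKM at E17.5, 155 and 323 FPKM at P0.5, 502 and 598 FPKM at P7.5 and 518 and 739 FPKM in the adult. The lowest level was at P0.5, and the adult libraries both lay above both P0.5 libraries, by 1.46 ± 1.08 (SE) on the log2 scale, which was not past the threshold (adjusted p = 0.381, limma).

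Among the stathmins, Stmn2 (SCG10) rose from 3.69 and 0.42 FPKM in the adult to 587 and 408 FPKM at P0.5, a difference of 7.57 ± 2.54 on the log2 scale (adjusted p = 0.0427, limma). Stmn4 gave 134 and 73 FPKM at P0.5 and was listed at 0 in both P7.5 and both adult libraries (adjusted p = 0.0341, limma). Stmn3, the most abundant stathmin at P0.5 with 942 and 796 FPKM, had 57.7 and 0 FPKM in the adult. Its difference of 6.82 ± 3.54 was short of the threshold (adjusted p = 0.185, limma). That standard error rests on the spread within all SC groups of the fit. The replicates of Stmn3 also parted at E17.5, with 890 and 5.29 FPKM in Cre-positive and 667 and 0.073 FPKM in Cre-negative SC. Stmn1 gave 116 and 91.2 FPKM at P0.5 against 0 and 2.47 FPKM in the adult (5.80 ± 2.07, adjusted p = 0.055, limma). At P0.5 the order of the stathmins by level was Stmn3, Stmn2, Stmn1 and Stmn4, with the libraries of Stmn1 and Stmn4 overlapping and the others not.

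Of the CRMPs, Dpysl2 (CRMP2), the founding member of the family that binds tubulin dimers, was among the most abundant mRNAs. It measured 13552 and 12635 FPKM at P0.5, where it ranked 4 and 3 among the genes with a value, and 1702 and 1134 FPKM in the adult, a difference of 3.23 ± 0.87 on the log2 scale (adjusted p = 0.0161, limma). Crmp1 was at 177 and 76.4 FPKM at P0.5 and at 3.63 and 0 FPKM in the adult (5.77 ± 1.97, adjusted p = 0.0462, limma). Dpysl3 (CRMP4), on chromosome 18, was at 203 and 107 FPKM against 11.2 and 1.72 FPKM, and its difference of 4.68 ± 1.75 missed the threshold (adjusted p = 0.0664, limma). At P7.5 the libraries of all 3 overlapped with the adult ones, with Dpysl2 at 4406 and 1021 FPKM, Crmp1 at 0 and 6.18 FPKM and Dpysl3 at 1.13 and 17.3 FPKM.

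The 5 calls were not stable when single libraries of the comparison were left out. Without replicate 1 of P0.5, replicate 2 of P0.5 or replicate 2 of adult Cre-positive SC none of the 10 genes passed, and without replicate 1 of adult Cre-positive SC Dpysl2 alone did; each of these fits leaves a group with 1 library, which is assumed to vary like the others. Fitted on the 2 groups alone, 8 genes passed, with Basp1, Stmn1 and Dpysl3 added. With no filter on low values Gap43 and Dpysl2 alone passed, and with a pseudocount of 0.1 in place of 1 Gap43, Stmn4 and Dpysl2 did. No gene of the 10 passed between P7.5 and adult, nor did any other gene as higher (0% of genes).

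At P7.5 and among adults the replicates parted as well. In P7.5 Cre-positive SC replicate 1 gave 0 FPKM for Stmn1, Stmn3 and Crmp1 and 0.101 FPKM for Stmn2, and replicate 2 gave 18.3, 25.5, 6.18 and 8.08 FPKM. In adult Cre-negative SC 8 of the 10 genes were listed at 0 in replicate 2, Marcks and Dpysl2 being the others, and 1 in replicate 1, Gap43. Adult retina was unequal in the other direction, with 7 of the 10 genes at 0 in replicate 1 and 1, Gap43, in replicate 2.

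At E17.5 all 10 genes had a mean above that of the adult in Cre-positive SC, and none passed the test, where 0.284% of all genes did as higher. Gap43 differed most, by 5.06 ± 2.04 on the log2 scale (adjusted p = 0.582, limma). The replicates disagreed there: in Cre-positive SC 9 of the 10 genes were higher in replicate 1, by a median of 5.15 on the log2 scale, whereas the median over 3750 genes was 0.50. Stmn3 read 890 and 5.29 FPKM, Stmn1 299 and 6.46 FPKM, Crmp1 186 and 3.48 FPKM, Stmn2 65.2 and 5.15 FPKM, and Stmn4 70.1 and 0.0738 FPKM. Dpysl2 was the exception at 5130 and 7257 FPKM. In the Cre-negative SC of this stage 9 of the 10 genes were also higher in replicate 1, by a median of 3.36, with 2.18 over all genes. In replicate 2 of Cre-negative SC Gap43 and Stmn2 were listed at 0 and Stmn3 at 0.073 FPKM, against 125, 244 and 667 FPKM in replicate 1. By the estimate of depth replicate 1 was the shallower library in both groups, with 7250000 and 12100000 fragments in Cre-positive and 483000 and 13800000 in Cre-negative SC. The part of depth in this disagreement was not tested.

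**Figure D2:**
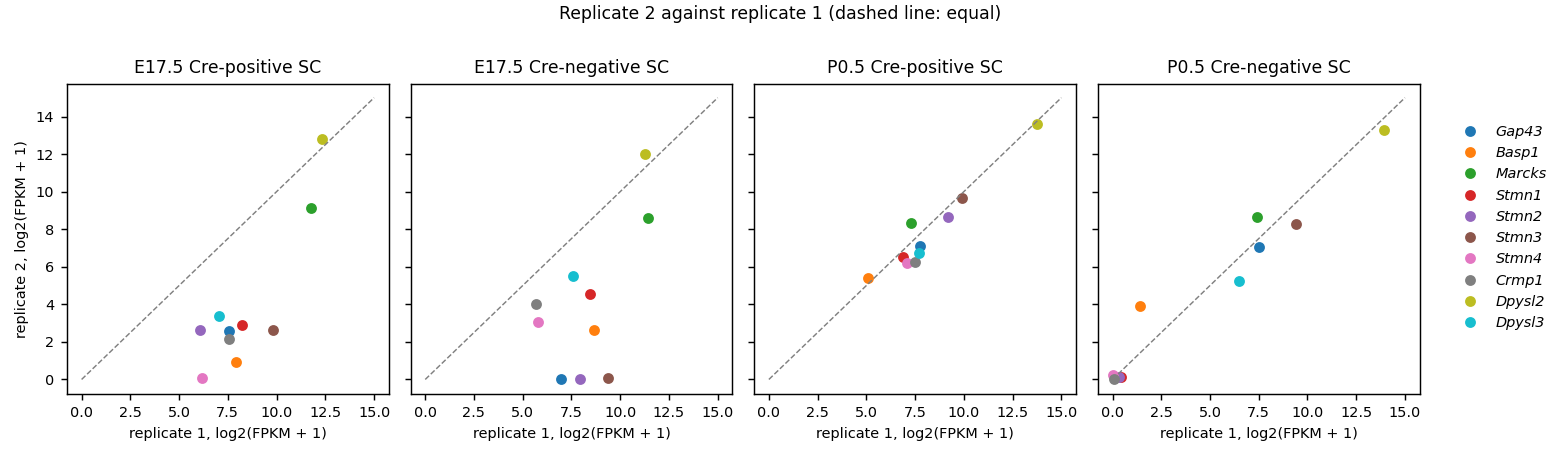
Replicate 2 against replicate 1 for the 10 growth-cone genes, as log2(FPKM + 1), in the SC groups of E17.5 and P0.5. Each point is 1 gene and the dashed line marks equal levels. At E17.5 most genes lie far below the line in both groups, and at P0.5 they lie near it.

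With both early stages averaged, Gap43 (6.23 ± 1.76 on the log2 scale, adjusted p = 0.0333, limma) and Dpysl2 (2.68 ± 0.76, adjusted p = 0.0327, limma) were higher than in adult Cre-positive SC, 2 of 10 genes, where 18.1% of all genes were. The call of Gap43 again rests on its listed adult 0. The count of called genes moved with the libraries of E17.5. Without replicate 2 of E17.5 it was 5, Gap43, Basp1, Stmn1, Stmn4 and Crmp1, without replicate 1 of E17.5 it was 1, Dpysl2, and without any 1 library of P0.5 or of the adult it was 0. With no filter on low values it was 0 as well.

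The Cre-negative SC, which holds no tagged ribosomes, was not free of these mRNAs. At P0.5 it gave 182 and 130 FPKM for Gap43, 686 and 307 FPKM for Stmn3, 15490 and 9810 FPKM for Dpysl2, 87.4 and 36.6 FPKM for Dpysl3 and 170 and 398 FPKM for Marcks. In the adult Cre-negative SC Gap43 was listed at 0 in both libraries, Dpysl3 stood at 2.47 and 0 FPKM, Stmn3 at 153 and 0 FPKM, and Dpysl2 at 1098 and 183 FPKM. In the background 4 of the 10 genes, Gap43, Stmn3, Dpysl2 and Dpysl3, had both P0.5 libraries above both adult ones, where 18.6% of all genes did. Averaged over E17.5 and P0.5, Dpysl2 passed the test in the background as well (3.80 ± 0.76 on the log2 scale, adjusted p = 0.0295, limma), 1 of 10 genes where 2.32% of all genes did. That call was lost without any of the libraries P0.5 Cre-negative replicate 1, P0.5 Cre-negative replicate 2 or adult Cre-negative replicate 2, and with no filter on low values (adjusted p = 0.053, limma). The change from early stages to adult did not differ between Cre-positive and Cre-negative SC past the threshold for any of the 10 genes, where 7.04% of all genes were higher by this interaction. Stmn4 came nearest, with 5.65 ± 2.58 and an adjusted p of 0.245 (limma).

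At P0.5 Stmn1, Stmn2, Stmn4 and Crmp1 stood under 1 FPKM in both Cre-negative SC libraries and at 73 FPKM or more in both Cre-positive ones. These Cre-negative libraries had 2162 and 2546 genes above 0, and the Cre-positive ones 4620 and 4923. Gapdh, Ppia, Pgk1 and Hprt were at 0 in both Cre-negative libraries, and Pgk1 in both Cre-positive ones as well. A level near 0 in this background is therefore uncertain. Stmn1, Stmn2, Stmn4 and Crmp1 were not absent from Cre-negative SC at other stages, with Stmn1 at 351 and 22.6 FPKM at E17.5. At P0.5 Stmn1 gave 116 and 91.2 FPKM in Cre-positive and 0.335 and 0.096 FPKM in Cre-negative SC (6.42 ± 2.07 on the log2 scale, adjusted p = 0.0361, limma). Stmn2 gave 587 and 408 against 0.257 and 0.0976 FPKM, the largest difference of the 10 (8.71 ± 2.54, adjusted p = 0.0228, limma).

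Stmn4 gave 134 and 73 FPKM against 0 and 0.16 FPKM (6.53 ± 2.10, adjusted p = 0.0361, limma). Crmp1 gave 177 and 76.4 against 0.053 and 0.0301 FPKM (6.81 ± 1.97, adjusted p = 0.0219, limma). These 4 of 10 genes compare with 28.1% of all genes called higher in Cre-positive SC at P0.5 and 4.35% called lower.

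The other 6 genes did not pass. Gap43, at 211 and 135 FPKM with tag and 182 and 130 FPKM without, differed by 0.13 ± 2.04, and Dpysl2 by 0.09 ± 0.87. Stmn3 differed by 0.91 ± 3.54, Dpysl3 by 1.36 ± 1.75, Marcks by -0.21 ± 1.08 and Basp1, at 33.4 and 40.7 against 1.67 and 13.8 FPKM, by 2.59 ± 2.33. Standard errors of this size leave differences of several fold open. In all, 7 of the 10 genes had both Cre-positive libraries above both Cre-negative ones, where 51.3% of all genes did. Leaving out any of the 4 libraries of P0.5 left none of the 10 past the threshold, and with no filter on low values Stmn2 and Crmp1 alone passed.

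**Figure D3:**
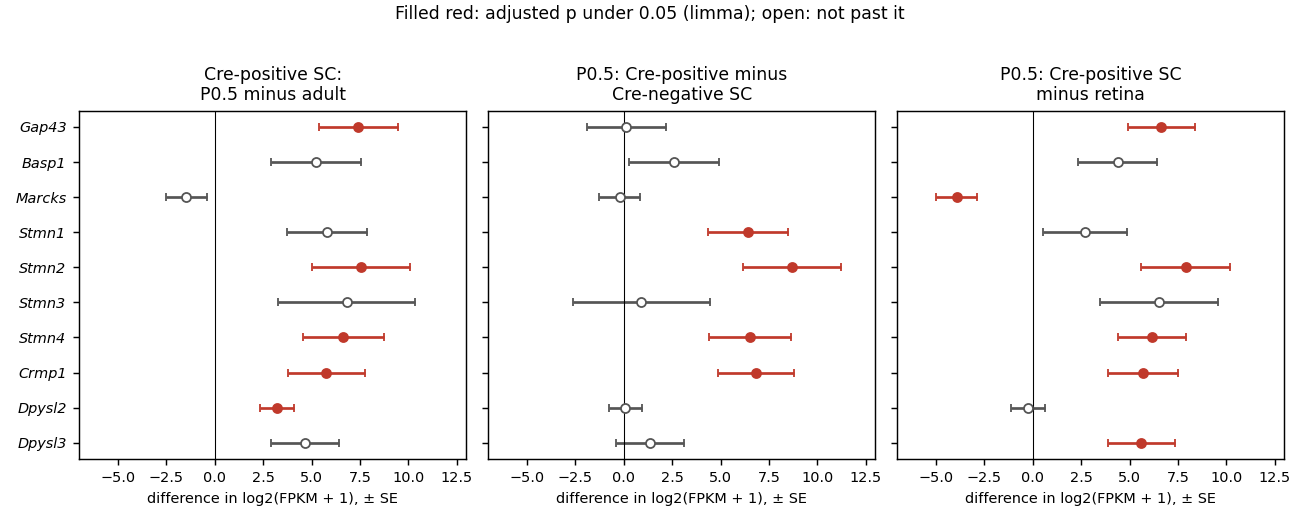
Differences in log2(FPKM + 1) with standard errors for the 10 genes in 3 comparisons at P0.5. Filled red points passed an adjusted p of 0.05 (limma) and open points did not. Gap43 passes against the adult libraries, where it was listed at 0, and against retina. Against Cre-negative SC Gap43 lies at 0.13. Stmn2, Stmn4 and Crmp1 pass in all 3 panels.

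At the other stages no gene of the 10 differed between Cre-positive and Cre-negative SC past the threshold, where 0.468% of all genes were called higher at E17.5, 0% at P7.5 and 0.0836% among the adult libraries. The E17.5 differences ranged from -1.33 for Dpysl3 to 1.57 for Gap43, and 5 of 10 were above 0. In the adult Stmn4 was listed at 0 in both Cre-positive libraries and at 67 and 0 FPKM in the Cre-negative ones. A direct comparison of the Cre difference at P0.5 with its mean at the other 3 stages, added after the values were seen, passed for Stmn2 (8.96 ± 2.93, adjusted p = 0.0413, limma), Stmn4 (8.02 ± 2.43, adjusted p = 0.0296) and Crmp1 (7.08 ± 2.28, adjusted p = 0.0381), where 25.8% of all genes passed as higher. For Gap43 it was -0.34 ± 2.35 and for Dpysl2 -0.72 ± 1.01. Without the 3 shallowest libraries none of the 10 passed it, and Stmn4 and Stmn2 then had adjusted p of 0.0521 and 0.0517 (limma). The same held without any 1 of the 4 libraries of P0.5 and with no filter on low values.

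**Figure D4:**
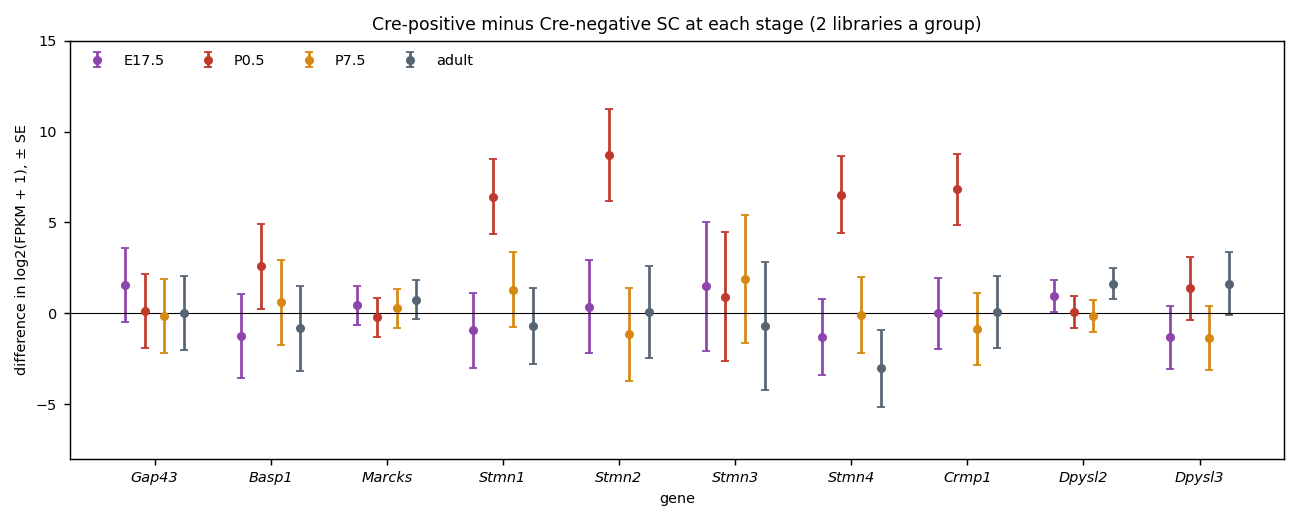
Difference between Cre-positive and Cre-negative SC in log2(FPKM + 1), with standard errors from limma, for each gene at the 4 stages. Stmn1, Stmn2, Stmn4 and Crmp1 at P0.5 stand between 6.42 and 8.71, and Gap43, Marcks, Stmn3 and Dpysl2 lie between -0.21 and 0.91 at that stage.

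Some markers of other cells differed between these groups and others did not. Of 6 astrocyte markers, 3 to 4 reached 1 FPKM in P0.5 Cre-positive SC with a summed level of 42.4 to 54.4 FPKM, against 1 with 5.77 to 10.6 FPKM in Cre-negative SC, and Gfap and Aqp4 were at 0 in both groups. Of 5 microglia markers all were at 0 in P0.5 Cre-positive SC. In Cre-negative SC the sum was 43.2 to 77 FPKM, from C1qa alone. All 3 markers of GABAergic neurons of the SC were at 0 in both groups. Of 6 oligodendrocyte markers, 1, Cnp, reached 1 FPKM in both P0.5 groups, and the others were at 0 there. In adult Cre-positive SC 2 to 3 reached it, with a sum of 735 to 990 FPKM against 84.7 to 86.6 FPKM at P0.5. Mobp, Mog and Mag were at 0 at both stages. The sum in adult Cre-negative SC was 184 to 4148 FPKM. All 6 markers of progenitors and dividing cells were at 0 in P0.5 Cre-positive SC and summed to 4.78 to 12.9 FPKM in Cre-negative SC, from Top2a alone. The RGC markers summed to 110 to 300 FPKM in P0.5 Cre-positive SC, with Rbpms, Sncg and Thy1 at 0. In P0.5 Cre-negative SC they summed to 200 to 758 FPKM. Over the 24 libraries Pou4f1 averaged 1105 FPKM and the next of these markers, Nefl, 5.11 FPKM. Sums of this list thus mainly follow 1 gene. The part of other cells in the differences above was not tested.

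In retina the pattern was another. Marcks and Dpysl2 were the abundant members, and Gap43 was scarce. Marcks measured 5918 and 1833 FPKM at E17.5, 3449 and 3371 FPKM at P0.5, 485 and 239 FPKM at P7.5 and 64.2 and 220 FPKM in the adult. The early libraries lay above the late ones without overlap, and Marcks was higher than in the adult at E17.5 (4.78 ± 1.04 on the log2 scale, adjusted p = 0.00539, limma over 4080 genes), at P0.5 (4.83 ± 1.04, adjusted p = 0.00391) and over both (4.80 ± 0.90, adjusted p = 1.51e-04). It was 1 gene of the 9 that could be tested, where 0.172% of all genes were called higher at E17.5 and 0.27% at P0.5. Averaged over both stages Dpysl2 was called too (2.69 ± 0.69, adjusted p = 0.018, limma), 2 of 9 where 0.417% of all genes were called.

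Dpysl2 measured 19411 and 7465 FPKM at E17.5, where it was the top gene with a value in replicate 1, 19872 and 12289 FPKM at P0.5, 5330 and 2828 FPKM at P7.5 and 1438 and 3145 FPKM in the adult. These calls in the retina were lost under other settings: with plain moderation the adjusted p of Marcks was 0.505 at E17.5, 0.486 at P0.5 and 0.275 over both, and with median-ratio scaling, which tested 3553 genes, it was 0.276, 0.137 and 0.0698. Without replicate 1 of the adult retina, none of the 9 genes passed in any of the 3 comparisons, and the call at P0.5 was also lost without either P0.5 library and that at E17.5 without replicate 1 of E17.5. At P7.5 none passed, where 0% of all genes did.

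Gap43 in retina gave 5.64 and 24 FPKM at E17.5, 0.747 and 0.642 FPKM at P0.5, 0 and 0.258 FPKM at P7.5 and 0 in both adult libraries. Its early libraries thus lay above the adult ones, and it missed the threshold at E17.5 (adjusted p = 0.398, limma) and over both early stages (adjusted p = 0.579). Basp1, Stmn1, Stmn2, Stmn3, Crmp1 and Dpysl3 had overlapping P0.5 and adult libraries or lay higher in the adult, and 3 of the 9 genes tested, Gap43, Marcks and Dpysl2, had both P0.5 libraries above both adult ones, where 12.6% of all genes did. Stmn3 stood at 10.5 and 6.75 FPKM at P0.5 and at 59 and 22.3 FPKM in the adult, a difference of -1.99 ± 1.77 that did not pass (adjusted p = 0.991, limma). Stmn4 did not exceed 1.10 FPKM in any retina library and failed the filter of 1 FPKM in 2 libraries there.

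Between Cre-positive SC and retina at P0.5, Gap43 was 211 and 135 FPKM against 0.747 and 0.642 FPKM, a difference of 6.65 ± 1.75 on the log2 scale (adjusted p = 0.00875, limma over 7193 genes). Stmn2 was higher by 7.91 ± 2.30 (adjusted p = 0.0163), Stmn4 by 6.17 ± 1.76 (adjusted p = 0.0142), Crmp1 by 5.70 ± 1.82 (adjusted p = 0.0269) and Dpysl3 by 5.62 ± 1.74 (adjusted p = 0.023, limma). Marcks went the other way, at 155 and 323 FPKM in SC and 3449 and 3371 FPKM in retina (-3.92 ± 1.06, adjusted p = 0.0106, limma). So 5 of 10 genes were higher, where 26.4% of all genes were, and 1 was lower, where 1.49% were. Gap43, Dpysl3 and Marcks did not pass between Cre-positive and Cre-negative SC at P0.5. Cre-negative SC gave 182 and 130 FPKM for Gap43, 87.4 and 36.6 FPKM for Dpysl3 and 170 and 398 FPKM for Marcks. For these genes axonal and background mRNA cannot be told apart in the comparison with retina.

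Stmn1, Stmn3 and Basp1 differed by 2.70 ± 2.16, 6.52 ± 3.06 and 4.39 ± 2.06, none past the threshold, and Dpysl2 by -0.26 ± 0.86. Without replicate 1 of P0.5 Cre-positive SC or replicate 2 of P0.5 retina none of the 10 passed, without replicate 2 of P0.5 Cre-positive SC Gap43, Marcks and Stmn4 did, and without replicate 1 of P0.5 retina Gap43 alone did. With a pseudocount of 0.1 Gap43 and Marcks alone passed. At E17.5, P7.5 and adult none of the 10 differed, where 0.459%, 0% and 0.0973% of all genes were called higher. In the adult Marcks stood at 518 and 739 FPKM in Cre-positive SC and 64.2 and 220 FPKM in retina, the reverse of P0.5, without passing (2.37 ± 1.06, adjusted p = 0.621, limma). The difference of Marcks at P0.5 minus adult was itself lower in Cre-positive SC than in retina in a comparison added after the values were seen (-6.29 ± 1.503, adjusted p = 0.00672, limma), where 0.417% of all genes passed as lower. Without replicate 1 of P0.5 Cre-positive SC it was not past the threshold.

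Partners of these proteins were looked at in 5 lists. Of the 13 cytoskeletal and receptor partners, 11 could be tested in SC, and 6 were higher at P0.5 than in adult Cre-positive SC and none lower, where 31.2% of all genes were higher and 0.919% lower, with a median difference of 3.65. The list holds tubulins, whose dimers stathmins and CRMPs bind. Tuba1a, Tubb2b and Actg1 passed with 8.24 ± 2.05, 9.09 ± 2.09 and 6.40 ± 1.61, as did the semaphorin receptor genes Nrp1 (3.51 ± 0.78) and Plxna4 (1.51 ± 0.43), all named after their values were seen. Tubb5 was at 18521 and 24063 FPKM at P0.5 and 1335 and 2127 FPKM in the adult (3.65 ± 0.62, adjusted p = 0.00106, limma), and the neuronal Tubb3 at 3059 and 1804 against 9.08 and 107 FPKM, which missed (adjusted p = 0.0586). Actb, the most abundant of the list, had no usable entry in 3 libraries and was left out.

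Set against the same 31.2% of all genes, 4 of 17 other growth-cone genes tested were higher at P0.5 than in the adult, a smaller share, and none was lower. Among the 4 was Dbn1 (drebrin, which binds actin filaments), at 2508 and 1676 against 20.4 and 0 FPKM (8.79 ± 1.48, adjusted p = 9.61e-04, limma). Ncam1, an adhesion molecule, gave 2.23 ± 1.10, and the actin-bundling Fscn1 gave 3.54 ± 1.60, neither past the threshold. Of 11 kinases and phosphatases 3 were higher, a share near that of all genes, and 1 was lower, the kinase gene Rock1 at 5.20 and 4.17 FPKM against 57.3 and 141 FPKM in the adult (-4.01 ± 1.07, adjusted p = 0.0148, limma). Gsk3b and the calcineurin subunit Ppp3ca did not pass (-2.99 ± 1.36 and -1.02 ± 1.65). None of the 5 genes for binders of Gap43 mRNA and none of the 3 further family members that were tested passed between P0.5 and adult, with Khsrp, which promotes decay of its targets, at -2.001 ± 1.998, Elavl3 at 1.96 ± 1.66 and Elavl4 at 1.81 ± 2.14.

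Against the Cre-negative SC of P0.5, 2 of the further family members passed in opposite directions. Dpysl5 (CRMP5) stood at 30.6 and 13.2 FPKM in Cre-positive SC and was listed at 0 in both background libraries (adjusted p = 0.0449, limma). Gprin1, which binds G proteins and promotes neurite growth, was listed at 0 in both Cre-positive libraries and stood at 25.7 and 23.5 FPKM in the background (adjusted p = 8.50e-06, limma). Marcksl1 gave 3.89 and 12.9 against 0 and 0.0593 FPKM and missed the threshold (adjusted p = 0.187, limma). In the other lists 3 of 11 kinases and phosphatases, 1 of 11 partners, 1 of 5 binders of Gap43 mRNA and 2 of 17 other growth-cone genes were higher in Cre-positive SC and none was lower, where 28.1% of all genes were higher. Between Cre-positive SC and retina at P0.5, 4 of 11 kinases and phosphatases, 5 of 11 partners, 0 of 5 binders, 4 of 17 other growth-cone genes and 1 of 4 further family members were higher, and none was lower, where 26.4% of all genes were higher.

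The members did not move as a block over the libraries. Over the 16 SC libraries Pearson's r of log2(FPKM + 1) was 0.897 between Stmn2 and Crmp1, 0.852 between Stmn1 and Stmn4 and 0.846 between Gap43 and Stmn3, while Marcks reached 0.536 at most, with Basp1, and stood at 0.088 with Gap43. These values describe 16 libraries that share stages, replicates and depth. Over all 24 libraries and 5699 genes that reached 10 FPKM in any library, the genes most like Gap43 were Bcat1 (r = 0.963), Prmt2 (0.949), Ip6k2 (0.934), Ywhah (0.925) and Eif3b (0.924). The member most like Gap43 was Stmn3, with r = 0.796 at place 101, followed by Dpysl3 with 0.771 and Basp1 with 0.70.

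The run-off experiment asked which mRNAs were held by ribosomes that can still elongate. Ribosomes were allowed to finish their message in the lysate while new initiation was blocked, so that a translated mRNA is lost from the precipitate. It was done in adult Cre-positive SC and adult retina with 1 library each, so no difference has a replicate check, and the intervals speak of counting error alone, because amplified reads that carry no molecular tags may copy the same molecule. The libraries with run-off held 349395 reads in SC and 315009 in retina, 10.7% and 6.72% of the 3262914 and 4686284 reads without it, and reads were compared first without scaling. How much of each sample was sequenced is not given in the sources used here. In SC all 10 genes had at least 10 reads in both libraries together and all were at least 2 times lower with run-off, where 87.8% of all genes were. In retina 7 of the 8 genes with at least 10 reads were, where 89.8% of all genes were. The median share of reads left in SC was 3.34% over the 10 genes and 0% over 4155 genes. In retina it was 3.98% over the 8 genes and 0% over 6894 genes. The experiment had no Cre-negative SC library, so axonal and background reads cannot be told apart in it.

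Gap43 had 976 reads in adult Cre-positive SC without run-off and 35 with it, which left 3.59% (exact 95% interval 2.48 to 5.02). The same gene, at 299 CPM in the library without run-off, was listed at 0 in both adult Cre-positive SC libraries of the main series, where 3 fragments would give 2.85 and 1.64 FPKM. Dpysl2 had 26749 and 1821 reads (6.81%, 6.49 to 7.14), Marcks 613 and 37 (6.04%, 4.21 to 8.41) and Stmn2 271 and 5 (1.85%, 0.594 to 4.36). Stmn3 kept the most, 180 of 817 reads (22%, 18.6 to 25.9).

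Basp1 had 103 and 5 reads in SC and Dpysl3 194 and 6. Stmn1 with 21 reads, Stmn4 with 29 and Crmp1 with 10 had none left with run-off, which allows up to 19.2%, 13.6% and 44.6%. Per kilobase of transcript the library without run-off ordered the genes as Dpysl2 (1810 CPM per kilobase, CPM being reads scaled to the library total), Stmn3 (220) and Gap43 (211) ahead of Marcks (46.4) and Stmn2 (40.1).

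In retina Dpysl2 fell from 71114 to 2757 reads (3.88%, 3.73 to 4.03), Marcks from 9255 to 407 (4.40%, 3.97 to 4.86) and Dpysl3 from 321 to 5 (1.56%, 0.502 to 3.67). Stmn3 had 453 reads without run-off and none with it, which allows up to 0.818%, whereas in SC it kept the largest share of the 10. Stmn2 had 68 and 55 reads (80.9%, 55.6 to 117), the gene that was not 2 times lower. Basp1 kept 6 of 32 reads, Stmn1 2 of 49 and Crmp1 0 of 130, and Gap43 and Stmn4 had no read in either retina library.

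Set against the library totals, part of this is lost. In CPM 7 of the 10 genes in SC were at least 2 times lower with run-off, where 69.2% of all genes were, and 3 of 8 in retina, where 60.2% were. Stmn3 in SC was then 2.06 times higher with run-off (515 against 250 CPM), and Stmn2 and Basp1 in retina 12 and 2.79 times higher. In the libraries with run-off 3 reads were worth 8.59 CPM in SC and 9.52 in retina, so low genes could not be compared on this scale.

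**Figure D5:**
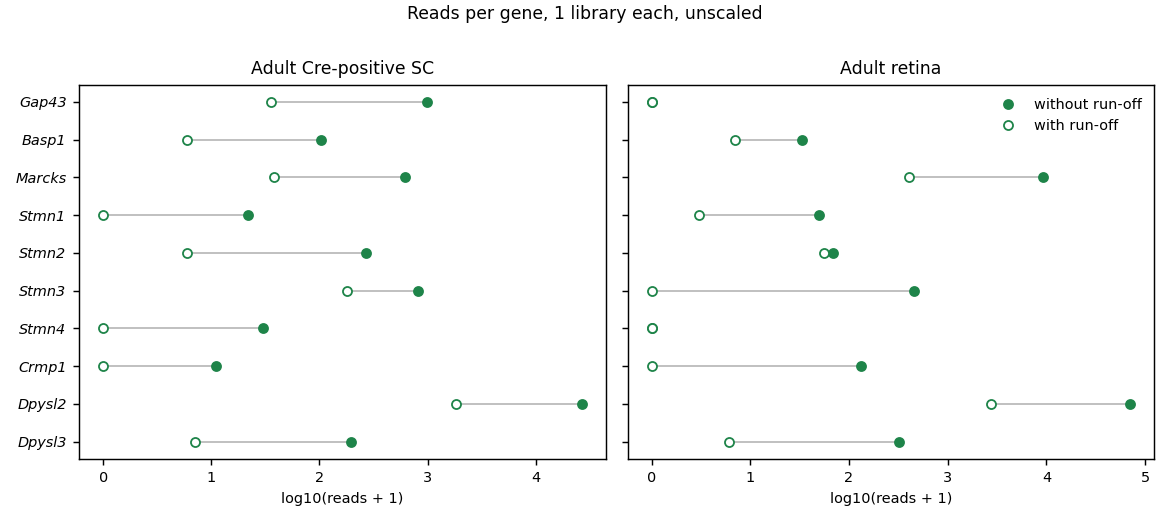
Reads of the 10 genes in the adult run-off experiment, as log10(reads + 1), for Cre-positive SC and retina. Filled points are the library without and open points the library with run-off, 1 library each and unscaled. In SC all 10 genes lie lower with run-off, and in retina Stmn2 hardly moves from 68 to 55 reads while Gap43 and Stmn4 have none.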

How the data were processed

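Ribosome-bound mRNA was amplified by PCR before sequencing. Per the submitters' processing notes the authors mapped reads to mm10 with TopHat2 2.0.12, deposited FPKM from Cufflinks 2.2.1 for 24 libraries, and deposited HTSeq 0.6.1p1 read counts per gene for the 4 run-off libraries. Strand and annotation are not given in the sources used here, and the sequencer of each library is not stated. FPKM was tested on log2(FPKM + 1) with limma 3.58.1 in R 4.3.3, with trend and robust moderation, for genes with at least 1 FPKM in at least 2 libraries of a fit: 16 SC libraries (5983 genes), 8 retina libraries (4080) or 24 (7193). This understates the change of low genes. P-values are two-sided and adjusted over all genes of the fit, threshold 0.05. The 4 genes with a missing entry were left out. The test was tried on simulated data. Depth was estimated from the FPKM steps of 5372 genes with a single transcript, and may be off by a whole factor. Run-off reads were compared as counts, as a ratio with a Clopper-Pearson interval of 95%. The members and gene lists were chosen with earlier results of these data known. Named genes are all members, the 3 most abundant genes of each partner list and the 5 genes most like Gap43 by Pearson's r, and any other gene was chosen after its values were seen. A second pseudocount pair (0.1 and 10), no filter, a filter of 5 FPKM, median-ratio scaling, plain moderation, smaller fits, a replicate block and leaving out each library were tried. The 2 differences of differences and the fit without the 3 shallowest libraries were added after the values were seen. The levels of 1 marker list are not reported here.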

Additional observations from a re-analysis of the deposited data

Results flagged for a closer look

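Both comparisons here were added after the values were seen. The difference between Cre-positive and Cre-negative SC was larger at P0.5 than on average at the other 3 stages for 3 stathmin and CRMP genes, by 8.96 on the log2 scale for Stmn2, 8.02 for Stmn4 and 7.08 for Crmp1 (adjusted p of 0.0413, 0.0296 and 0.0381, limma). These 3 of 10 genes are near the share of all genes that passed this test as higher, 25.8%. With no filter on low values none of the 10 passed it. The difference of Marcks at P0.5 minus adult was lower in Cre-positive SC than in retina, by -6.29 on the log2 scale (adjusted p = 0.00672, limma), with SC levels of 155 and 323 FPKM against 518 and 739 FPKM and retina levels of 3449 and 3371 FPKM against 64.2 and 220 FPKM. Cre-negative SC gave 170 and 398 FPKM of Marcks at P0.5 and 488 and 280 FPKM in the adult.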

How the results depend on the processing

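The counts below are of growth-cone genes past the threshold, given as value under the alternative against the value reported. With a pseudocount of 0.1 they were 3 against 5 for P0.5 against adult Cre-positive SC (Gap43, Stmn4 and Dpysl2), 2 against 1 for retina at E17.5 and 2 against 1 at P0.5, 2 against 6 for Cre-positive SC against retina at P0.5 (Gap43 and Marcks), and 1 against 3 for the Cre difference at P0.5 against the other stages (Stmn4). With a pseudocount of 10 they were 1 against 2 for the mean of E17.5 and P0.5 against adult Cre-positive SC, 1 against 2 for the same mean in retina, and 2 against 1 for the P0.5 to adult difference between SC and retina. With no filter on low values they were 2 for P0.5 against adult Cre-positive SC, 0 for the early mean in Cre-positive and 0 in Cre-negative SC (1 reported), 2 against 4 for Cre-positive against Cre-negative SC at P0.5 (Stmn2 and Crmp1), 0 for retina at E17.5, at P0.5 and over both, and 0 for the Cre difference at P0.5 against the other stages. With at least 5 FPKM the retina counts were 0, 0 and 1, and with median-ratio scaling or plain moderation they were 0 in all 3 comparisons. A fit on the groups compared alone gave 8 for P0.5 against adult Cre-positive SC, 0 for the early mean in Cre-negative SC, 0 for retina at P0.5 and 7 for the change from P0.5 to adult between SC and retina. Without the libraries with the 3 lowest depths the Cre difference at P0.5 against the other stages gave 0 and the change between SC and retina 5. In CPM 7 genes in SC in place of 10 and 3 in retina in place of 7 were at least 2 times lower with run-off, which sums to 10 in place of 17. The causes were not tested.

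Leaving out 1 library at a time gave 0 to 1 genes for P0.5 against adult Cre-positive SC, 0 to 5 for the early mean there and 0 to 2 in Cre-negative SC, 0 for Cre-positive against Cre-negative SC at P0.5, 0 to 1 for retina at E17.5, 0 to 2 at P0.5 and 0 to 2 over both, 0 to 3 for Cre-positive SC against retina at P0.5, 0 to 4 for the Cre difference at P0.5 against the other stages, which was lost without any P0.5 library, and 0 to 1 for the change between SC and retina. Over all other alternatives 155 of 189 counts stayed within 1.5 times the reported one, and no direction of a called gene reversed. The 155 include comparisons with no called gene that stayed at 0, such as P7.5 against adult Cre-positive SC, so the share overstates how stable the calls were.

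Same-numbered replicates of Cre-positive and Cre-negative SC deviated from their group means with correlations of 0.394, 0.429, 0.319 and 0.0619 at the 4 stages in order of age, over 7193 genes, and those of Cre-positive SC and retina with 0.12, 0.393, 0.342 and -0.0296. The numbers were taken as pairs only if every correlation was over 0.1, which the adult groups were not, so a pairing at the younger stages is possible. The paper states that axons and retina were compared within the same animals and that a litter held both Cre genotypes. The labels do not say which libraries share animals or litters, so the main tests treated the groups as unpaired. With the replicate number as a block the retina count over both early stages was 1 in place of 2, and Crmp1 at P0.5 against adult Cre-positive SC had an adjusted p of 0.0551 (limma). With the block Basp1 passed between Cre-positive SC and retina at P0.5 (adjusted p = 0.0479), for 7 genes in place of 6, and Stmn1 passed for the Cre difference at P0.5 against the other stages (adjusted p = 0.0457, limma), for 4 in place of 3. Depth limits low values, and 3 fragments of Gap43 equal 4.37 FPKM in replicate 1 of E17.5 Cre-negative SC and 0.502 to 4.13 FPKM in the adult SC libraries.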
